A study of Rattus norvegicus with 8 samples.

Results

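Messenger RNA of the muscle acetylcholine receptor and its clustering genes was examined in the tibialis anterior of 8 adult Sprague-Dawley rats, a limb muscle made mostly of fast fibres. The genes were Chrna1, Chrnb1, Chrnd, Chrne and Chrng, which encode the receptor subunits, Musk and Rapsn, which hold the receptor at the synapse, and Ache, which encodes acetylcholinesterase. Every probe set whose only gene symbol in the platform annotation was one of these 8 was taken, which gave 9 probe sets of 7 genes, of 31099 probe sets and 14217 named genes on the array. Chrnb1 and Rapsn had 2 probe sets each, and Ache was not analysed here because no probe set carried its symbol. The hyperthyroid group held 4 rats injected intraperitoneally with T3, triiodothyronine, the hormone form that binds thyroid receptors, every 2 days at 25 µg per 100 g of body weight over 6 weeks, and killed 24 hours after the last dose. The 4 control rats were untreated, which leaves the injections themselves without a matched control. All rats weighed 200 ± 40 g at the start, and each group held 3 males and 1 female, without a label that says which array was which. Each rat gave 1 array, numbered 1, 2, 3 and 5 in the hyperthyroid group and 7, 8, 9 and 11 in the control group.

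At the neuromuscular junction a motor axon releases acetylcholine onto a small patch of the muscle fibre that is packed with nicotinic receptors. Each receptor is a pentamer of alpha1, beta1 and delta subunits with a variable position that is filled by gamma in fetal muscle and by epsilon in adult muscle. Nerve-derived agrin binds Lrp4 and activates the kinase MuSK, and rapsyn then anchors the receptors. Innervation keeps these genes active in the nuclei beneath the synapse, while electrical activity holds down Chrna1, Chrnd and Chrng elsewhere along the fibre, so that denervation raises them.

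The sequences just upstream of these genes are shown because they hold the short motifs through which that control is known to act. The E-box CANNTG is read by myogenic factors such as Myog and Myf6. The N-box CCGGAA is read by ETS factors such as GABP and is known from rodent and human synaptic genes. Promoter windows of 300 bases from RefSeq (assembly GRCr8), reaching from 250 bases before to 50 bases after the annotated start, were matched for 7 of the 8 genes, all but Rapsn. They are printed 5′ to 3′ on the gene's strand for the alpha1 and delta subunits, which had the largest group differences below, and for the adult and fetal subunits. Capitals mark each CANNTG, and each CCGGAA on either strand, and no 2 of these motifs overlap.
Chrna1, GRCr8 chr3:78877304-78877603, minus strand: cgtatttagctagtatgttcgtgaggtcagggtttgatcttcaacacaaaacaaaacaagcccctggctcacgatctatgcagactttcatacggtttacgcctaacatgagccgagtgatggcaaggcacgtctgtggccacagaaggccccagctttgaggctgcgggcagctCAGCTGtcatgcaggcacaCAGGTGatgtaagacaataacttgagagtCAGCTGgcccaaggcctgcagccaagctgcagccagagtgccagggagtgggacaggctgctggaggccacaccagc
Chrnd, GRCr8 chr9:95310066-95310365, plus strand: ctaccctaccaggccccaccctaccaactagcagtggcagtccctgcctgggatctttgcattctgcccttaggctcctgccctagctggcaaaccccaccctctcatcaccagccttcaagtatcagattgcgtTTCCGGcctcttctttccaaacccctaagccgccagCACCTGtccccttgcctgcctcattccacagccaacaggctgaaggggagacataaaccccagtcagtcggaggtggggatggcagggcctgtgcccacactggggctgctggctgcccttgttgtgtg
Chrne, GRCr8 chr10:55834105-55834404, minus strand: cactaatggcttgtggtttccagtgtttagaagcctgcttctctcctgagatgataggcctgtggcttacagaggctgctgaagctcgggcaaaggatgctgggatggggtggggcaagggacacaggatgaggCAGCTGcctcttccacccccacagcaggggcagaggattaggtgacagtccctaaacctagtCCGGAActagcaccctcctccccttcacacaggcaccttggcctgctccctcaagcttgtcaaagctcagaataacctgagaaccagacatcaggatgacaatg
Chrng, GRCr8 chr9:95325734-95326033, plus strand: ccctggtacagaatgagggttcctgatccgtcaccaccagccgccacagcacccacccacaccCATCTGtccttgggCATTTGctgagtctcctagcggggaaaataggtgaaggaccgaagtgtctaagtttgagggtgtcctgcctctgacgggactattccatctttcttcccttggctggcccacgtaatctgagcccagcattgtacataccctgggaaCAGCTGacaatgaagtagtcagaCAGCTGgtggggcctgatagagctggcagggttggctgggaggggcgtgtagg

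Only the Chrnd and Chrne windows held a CCGGAA, in Chrnd on the reverse strand at position -115 and in Chrne on the forward strand at -54, counted from the start site to the first base of the match. Of all 33465 RefSeq promoter windows of this length, 15% held the motif on either strand. The form CAGCTG of the E-box stood at -75 and -27 in Chrna1 and at -26 and -3 in Chrng. Chrne, Chrnb1 and Musk held 1 CAGCTG each, at -116, -41 and -79. A window with 2 or more CAGCTG was found for 1.69% of all promoters, any CAGCTG for 15.1%, and any CANNTG for 72.1%. Chrnb1, Musk and Ache had 3, 3 and 1 CANNTG and no CCGGAA. In the rat genome Chrnd and Chrng start next to each other, with 0 annotated gene starts between them. A letter match is a description of the window and was not tested for factor binding.

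No gene of this group passed the test for a difference between hyperthyroid and control muscle. Values were compared as log2 of the deposited intensity plus 3.41, so that fold changes of dim probe sets are understated. Probe sets whose mean log2 value lay above the 40th percentile, an intensity of about 22.4, entered the test. This filter kept 3 of the 9 probe sets, 1 each of Chrna1, Chrnb1 and Rapsn. Of these 3, 0 had a limma adjusted p under 0.05 and 0 an unadjusted p under 0.05, and the groups overlapped for all 3. Over all 18625 probe sets that passed the filter, 0.0322% had an adjusted p under 0.05, 9.68% an unadjusted p under 0.05, and 6.15% groups that did not overlap. The other 6 probe sets lay under the filter and are described from a fit without it, adjusted over 31042 probe sets, in which 0 of the 9 had an adjusted or an unadjusted p under 0.05. The small number of arrays, 4 in each group, limits how precise any of these values can be.

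**Figure D1:**
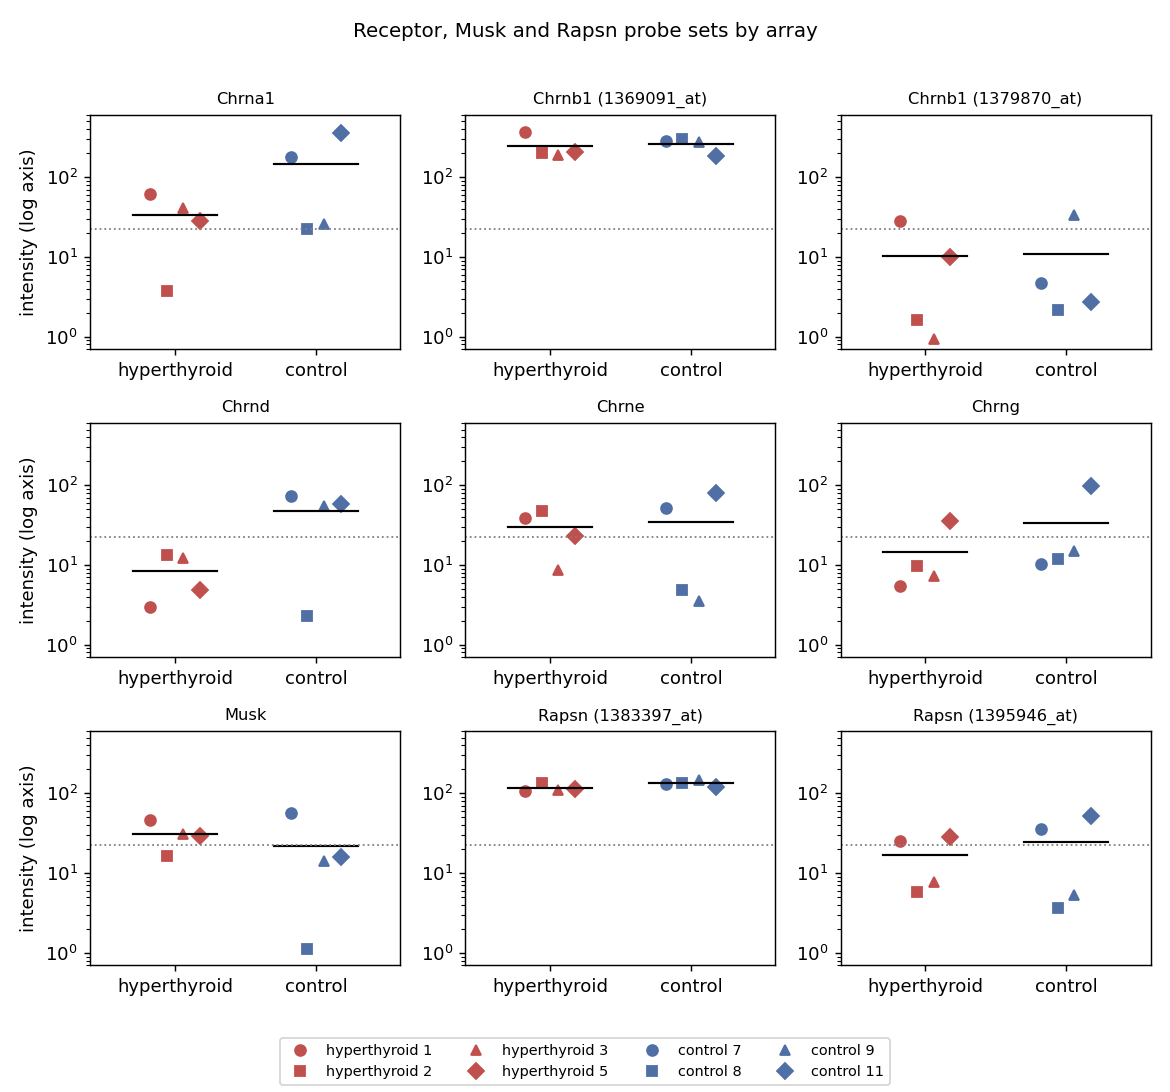
Deposited intensity (log axis) of the 9 probe sets on 4 hyperthyroid (red) and 4 control (blue) arrays, 1 symbol per array, with the group mean as a black line and the filter at 22.4 as a dotted line. The highest array reads 2.03 times the lowest for Chrnb1 (1369091_at) and 1.39 times for Rapsn (1383397_at). In the other panels it reads from 14.3 times, for Rapsn (1395946_at), to 95.5 times, for Chrna1, and the groups overlap in every panel.

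Chrna1 encodes the alpha subunit that carries the acetylcholine binding sites. Its intensities were 61.0, 3.71, 41.2 and 27.9 on hyperthyroid replicates 1, 2, 3 and 5, against 179, 22.4, 25.7 and 354 on control replicates 7, 8, 9 and 11. Control replicates 7 and 11 were the highest arrays, hyperthyroid replicate 2 was the lowest, and control replicates 8 and 9 lay below 3 of the hyperthyroid arrays. The means were 33.5 ± 24.0 in hyperthyroid and 145 ± 157 in control muscle (SD, n = 4 each). The log2 fold change was -1.56 ± 0.86 (standard error, limma adjusted p = 0.586), with a 95% interval from -3.40 to 0.27. Without control replicates 7 and 11 it was 0.04 (limma adjusted p = 0.99), so the sign of the difference rested on those arrays. They were the highest control arrays, so leaving them out could only move the value upwards.

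Chrnd encodes the delta subunit. Its probe set lay under the filter, with 3.0, 13.3, 12.4 and 4.85 on hyperthyroid replicates 1, 2, 3 and 5, against 73.6, 2.31, 54.3 and 57.4 on control replicates 7, 8, 9 and 11. Control replicates 7, 9 and 11 lay above all 4 hyperthyroid arrays, and control replicate 8 lay below all of them. The means were 8.37 ± 5.20 in hyperthyroid and 46.9 ± 30.9 in control muscle (SD, n = 4 each). Its log2 fold change of -1.70 ± 0.84 was the most negative of the 9 and had the smallest unadjusted p, 0.0563 (limma adjusted p = 0.622, fit without the filter). The 95% interval ran from -3.45 to 0.05. Without control replicate 8 the value was -2.57 (limma adjusted p = 0.343), and without control replicates 7 and 11 it was -0.74.

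Chrnb1 encodes the beta subunit. Its probe set above the filter (1369091_at) read 372, 199, 192 and 208 on hyperthyroid replicates 1, 2, 3 and 5, against 280, 302, 275 and 184 on control replicates 7, 8, 9 and 11. The highest array was hyperthyroid and the lowest was control. The means were 243 ± 86.6 in hyperthyroid and 260 ± 52.4 in control muscle (SD, n = 4 each), with a log2 fold change of -0.13 ± 0.24 (limma adjusted p = 0.901). The 95% interval ran from -0.66 to 0.39. The other Chrnb1 probe set (1379870_at) lay under the filter, between 0.935 and 28.0 on hyperthyroid and 2.19 and 33.3 on control arrays, with -0.04 ± 0.75 (limma adjusted p = 0.994).

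The probe sets of both subunits of the variable position lay under the filter. Chrne, the adult epsilon subunit, read 39.0, 48.0, 8.68 and 22.9 on hyperthyroid replicates 1, 2, 3 and 5, against 52.1, 4.83, 3.52 and 79.9 on control replicates 7, 8, 9 and 11. The control arrays held both the highest and the lowest values, with control replicates 7 and 11 above and control replicates 8 and 9 below the whole hyperthyroid group. The log2 fold change was 0.35 ± 0.85 (limma adjusted p = 0.948, 95% interval -1.43 to 2.12), and it turned to -0.14 and -0.22 without control replicate 8 and control replicate 9. Without control replicates 7 and 11 together it was 1.93 (limma adjusted p = 0.614).

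Chrng, the fetal gamma subunit that adult muscle replaces by epsilon, read 5.38, 9.83, 7.28 and 35.2 on hyperthyroid replicates 1, 2, 3 and 5, against 10.2, 11.8, 15.0 and 98.9 on control replicates 7, 8, 9 and 11. A single array in each group stood above the filter intensity, hyperthyroid replicate 5 and control replicate 11. The log2 fold change was -0.75 ± 0.80 (limma adjusted p = 0.845, 95% interval -2.43 to 0.92), and without control replicate 11 it was -0.08.

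The log2 ratio of Chrng to Chrne has no absolute meaning between 2 probe sets, but its difference between groups shows whether they moved unequally. It was -2.27, -1.96, -0.18 and 0.56 on hyperthyroid replicates 1, 2, 3 and 5, against -2.03, 0.88, 1.41 and 0.30 on control replicates 7, 8, 9 and 11. Hyperthyroid replicates 1 and 2 and control replicate 7 were the low arrays, and the groups overlapped. The means were -0.96 ± 1.37 in hyperthyroid and 0.14 ± 1.52 in control muscle (SD, n = 4 each), a difference of -1.10 that was given no test. Both probe sets lay under the filter.

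**Figure D2:**
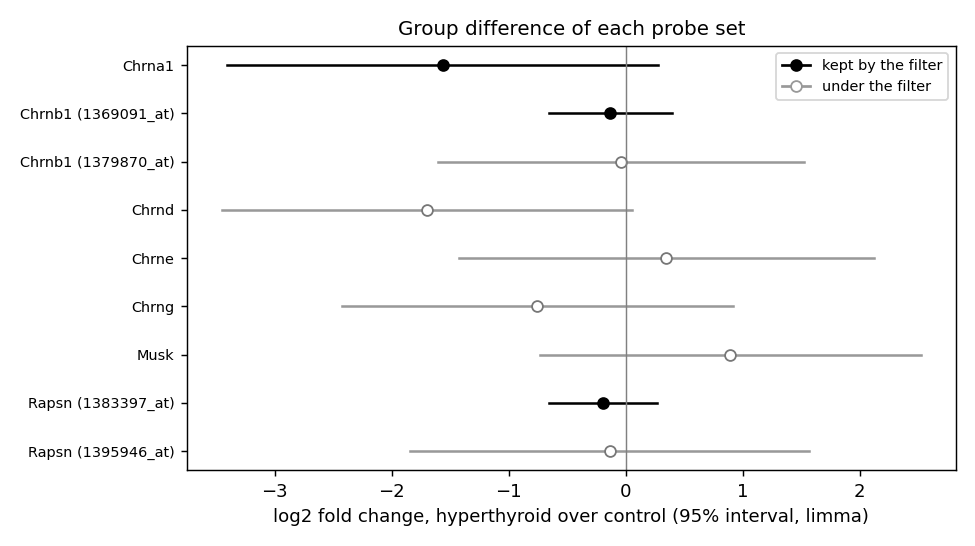
Log2 fold change of hyperthyroid over control muscle for each of the 9 probe sets (point) with the 95% interval of limma (line), filled for the 3 kept by the filter and open for the 6 under it. Every interval includes 0, and the intervals of Chrnb1 (1369091_at) and Rapsn (1383397_at) are the narrowest, ending at -0.66 and 0.39 and at -0.65 and 0.27.

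Musk encodes the receptor kinase that starts receptor clustering. Its probe set lay under the filter, and its fold changes come from fits without the filter. Musk read 46.8, 16.2, 31.4 and 28.9 on hyperthyroid replicates 1, 2, 3 and 5, against 56.2, 1.13, 14.3 and 16.0 on control replicates 7, 8, 9 and 11. Control replicate 7 was the highest array, while control replicates 8, 9 and 11 lay below all 4 hyperthyroid arrays, with control replicate 8 the lowest. The means were 30.8 ± 12.6 in hyperthyroid and 21.9 ± 23.8 in control muscle (SD, n = 4 each), with a log2 fold change of 0.89 ± 0.78 (limma adjusted p = 0.80, 95% interval -0.73 to 2.52). The reading of 1.13 on control replicate 8 lay below the 3.41 that was added to every intensity. Without control replicate 8 the log2 fold change was 0.24 and without control replicate 7 it was 1.48. Without control replicates 7 and 11 together it was 1.85 (limma adjusted p = 0.623), and none of these fits gave an adjusted p under 0.05.

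Rapsn encodes rapsyn, the scaffold under the receptor. Its probe set above the filter (1383397_at) read 106, 133, 111 and 115 on hyperthyroid replicates 1, 2, 3 and 5, against 129, 134, 147 and 122 on control replicates 7, 8, 9 and 11. Hyperthyroid replicates 1, 3 and 5 lay below all control arrays and hyperthyroid replicate 2 lay among them. The means were 116 ± 12.1 in hyperthyroid and 133 ± 10.7 in control muscle (SD, n = 4 each), with a log2 fold change of -0.19 ± 0.21 (limma adjusted p = 0.805). The 95% interval ran from -0.65 to 0.27. The other probe set (1395946_at), under the filter, ran from 5.80 to 28.5 on hyperthyroid and from 3.68 to 52.5 on control arrays, with -0.14 ± 0.81 (limma adjusted p = 0.981).

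The probe sets differed widely in how far the rats of 1 group spread, the 6 under the filter all spreading more than a typical kept probe set. The pooled SD within groups, on the log2 scale, was 1.67 for Chrna1, 1.46 for Chrne, 1.33 for Chrnd, 1.18 for Chrng and 1.15 for Musk. It was 0.13 and 0.39 for the probe sets of Rapsn and Chrnb1 above the filter and 1.25 and 1.30 for those under it, and its median over all kept probe sets was 0.44. Chrna1 was thus the variable one among the 3 probe sets above the filter, its highest array reading 95.5 times its lowest, against 1.39 times for Rapsn. The members were highest on control replicate 11 in 4 of the 9 probe sets, on control replicates 7 and 9 in 2 each and on hyperthyroid replicate 1 in 1.

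Markers of other tissue moved with some of these arrays. The summed intensity of 7 slow-fibre markers was 430 to 7989 on hyperthyroid and 3526 to 42087 on control arrays, and control replicates 7 and 11, the arrays with the most Chrna1, had the highest sums at 42087 and 28442. The 6 Schwann cell markers that the array carries, of 8 listed, summed to 648 to 1152 on hyperthyroid and 432 to 3209 on control arrays, with 3209 and 2212 on control replicates 7 and 11. Singly, 5 of them passed the filter, 2 above and 3 below 0 in log2 fold change, with a median of -0.17. None of the 5 passed the adjusted threshold, 1 had an unadjusted limma p under 0.05, and 0 had groups that did not overlap. Smooth muscle markers summed to 711 to 833 on hyperthyroid and 840 to 1454 on control arrays, again highest on control replicates 7 and 11. These sums did not overlap between the groups, while singly 0 of the 4 smooth muscle genes had groups apart, against 6.55% of all 10200 genes (each by its brightest kept probe set), and 1 of the 4 had an unadjusted limma p under 0.05. Myh7, the slow myosin heavy chain, averaged 56.5 ± 77.3 in hyperthyroid and 2120 ± 2603 in control muscle (SD, n = 4 each), with 5570 and 2692 on control replicates 7 and 11, and did not pass the test (log2 fold change -4.41 ± 1.25, limma adjusted p = 0.298). All 7 slow-fibre markers, Myh7 among them, were below 0 in log2 fold change, with a median of -3.27. Singly, all 7 had an unadjusted limma p under 0.05, against 10.4% of all genes. None of the 7 passed the adjusted threshold, and 0 had groups that did not overlap. The part of these other cells and fibres in the Chrna1, Chrnd and Chrne values was not tested, and in whole muscle fewer cells of a type and less RNA per cell cannot be told apart. Endothelial (614 to 1055 against 736 to 924), fibroblast (4266 to 31759 against 2734 to 19595), macrophage (207 to 439 against 201 to 520) and adipocyte markers (1191 to 2581 against 1169 to 2250) overlapped between hyperthyroid and control arrays, as did the 2 measured erythroid markers (4291 to 7853 against 4176 to 12834). All 6 markers of motor axons lay under the filter, among them Chat, which makes acetylcholine.

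**Figure D3:**
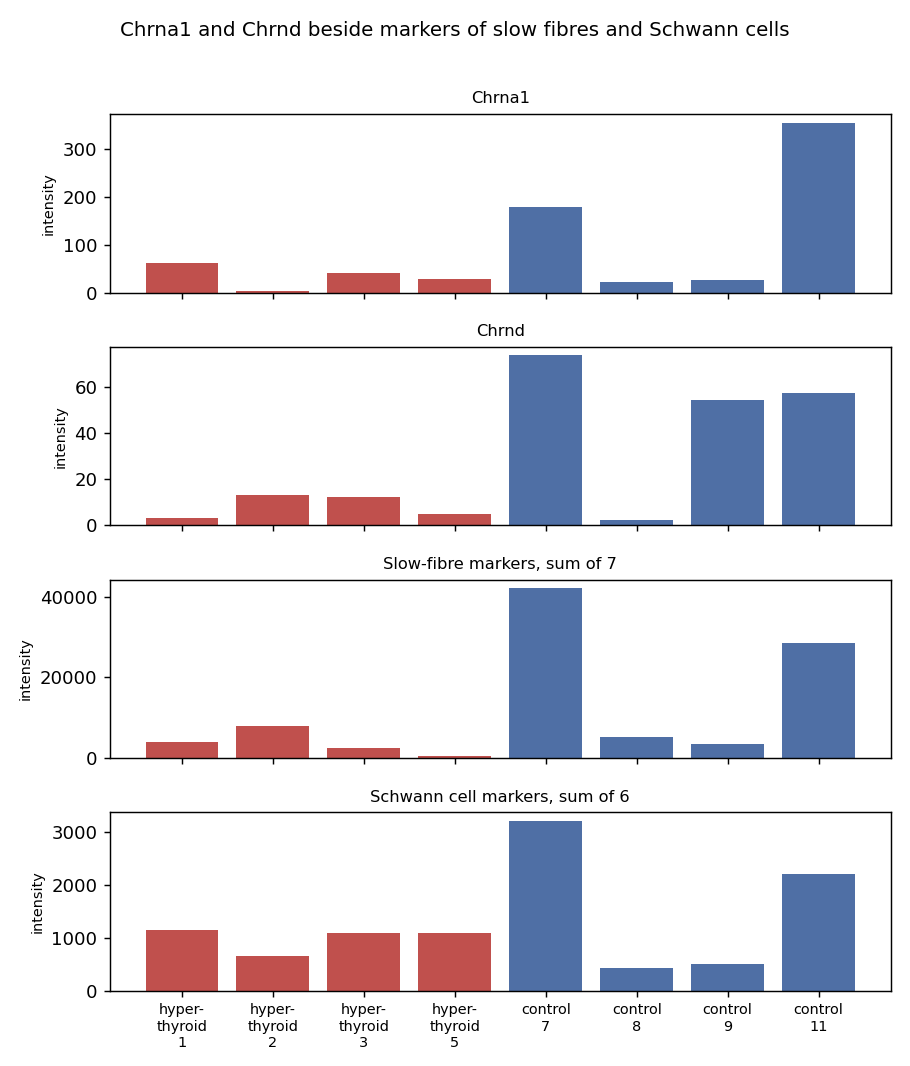
Intensity on each array (bars, linear axis from 0) of Chrna1, of Chrnd and of the summed markers of slow fibres and Schwann cells, with the 4 hyperthyroid arrays in red and the 4 control arrays in blue. Control replicates 7 and 11 have the highest bars for Chrna1, slow fibres and Schwann cells, and Chrnd is also high on control replicate 9.

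All 6 markers of skeletal muscle passed the filter on these arrays, and all 6 were below 0 in log2 fold change, their median being -0.40. None passed the adjusted threshold, 4 of the 6 had an unadjusted limma p under 0.05, against 10.4% of all genes, and 3 of the 6 had groups that did not overlap, against 6.55%. Ckm, the muscle creatine kinase, averaged 43055 ± 2635 in hyperthyroid and 56930 ± 7664 in control muscle (SD, n = 4 each), with a log2 fold change of -0.39 ± 0.13 (limma adjusted p = 0.366) and groups that did not overlap. The sum of the 6 was 166736 to 204531 on hyperthyroid and 214217 to 241978 on control arrays, and its part in the Rapsn and other values was not tested. Array medians over all probe sets were 38.8 to 42.0 in the hyperthyroid and 43.5 to 54.9 in the control group, at a mean of 150 on every array after 2% was left out at each end. In a principal component analysis of all kept probe sets, control replicate 11 scored 94.7 on the first axis, where the remaining arrays ran from -25.3 to 23.9, and control replicate 9 scored -87.1 on the second, where they ran from -8.96 to 26.8. Without both of these arrays Chrna1 had a log2 fold change of -1.28, Chrnd -0.95, Musk 0.98 and Chrng 0.04, and none passed the test.

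The other genes of the junction were counted with 1 probe set per gene, the brightest. Over all 10200 such genes, 0.049% had a limma adjusted p under 0.05, 10.4% an unadjusted p under 0.05 and 6.55% groups that did not overlap. The median log2 fold change of these genes was -0.00029, and 50% of them were below 0. Among postsynaptic partners of the receptor, 33 of 39 listed genes had a probe set and 29 passed the filter. Of these 29, 20 had a log2 fold change below 0 and 9 above, and the median was -0.15. None passed the adjusted threshold, and 1, Sspn, had an unadjusted p under 0.05. Sspn, sarcospan of the dystrophin complex, differed by -0.40 ± 0.18 (limma adjusted p = 0.51). Utrn, utrophin of the synaptic membrane, differed by -0.77 ± 0.46 (limma adjusted p = 0.618), and read 54.7, 19.1, 20.4 and 47.2 on hyperthyroid replicates 1, 2, 3 and 5, against 73.8, 60.9, 34.2 and 66.9 on control replicates 7, 8, 9 and 11. Scn4a, the muscle sodium channel, differed by -1.02 ± 0.69 and Plec, which links filaments to the membrane, by -0.25 ± 0.17.

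The genes that act with MuSK, named here for their role after their values were seen, did not pass the test. Agrn, which encodes agrin, differed by -0.17 ± 0.42, its receptor Lrp4 by -0.42 ± 0.35, and Dok7, the adaptor that activates MuSK, by 0.18 ± 0.27. Colq, the collagen tail that anchors acetylcholinesterase in the synaptic cleft, differed by -0.31 ± 0.43. For Colq the hyperthyroid arrays read 54.7, 54.9, 21.5 and 47.0 on replicates 1, 2, 3 and 5, against 54.3, 65.9, 31.4 and 69.3 on control replicates 7, 8, 9 and 11. The limma adjusted p of these 4 ran from 0.728 to 0.93.

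Among signalling and transcription genes of the synapse, 27 of 28 listed genes had a probe set and 22 passed the filter. Of these 22, 11 differed upwards and 11 downwards, and the median log2 fold change was -0.02. None passed the adjusted threshold, and 1 had an unadjusted p under 0.05. That gene was Cdc42, a small GTPase that acts on the actin under the receptors, at -0.41 ± 0.14 (limma adjusted p = 0.387). Its arrays read 6255, 7030, 8075 and 7830 on hyperthyroid replicates 1, 2, 3 and 5, against 8799, 11181, 11087 and 7983 on control replicates 7, 8, 9 and 11, so that only hyperthyroid replicate 3 reached above the lowest control array. The calcium/calmodulin kinase genes Camk2g and Camk2a had 0.42 ± 0.23 and 0.31 ± 0.20. Etv5, an ETS factor of synaptic nuclei in mouse, had -0.69 ± 0.42. The subunits of GABP, the factor that reads the N-box, were named for that role after their values were seen and had 0.11 ± 0.20 for Gabpa and -0.23 ± 0.28 for Gabpb1.

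Genes that respond to denervation include factors that read the E-box. Of 21 listed, 16 had a probe set and 15 passed the filter. Of these 15, 7 were above 0 and 8 below on the log2 fold change scale, and the median was -0.13. None passed the adjusted threshold, while 1 was higher and 3 were lower at an unadjusted p under 0.05, against 5.29% higher and 5.14% lower of all genes. The higher one was Myf6, a myogenic factor of adult fibres, at 0.71 ± 0.21 (limma adjusted p = 0.306), with all 4 hyperthyroid arrays above all 4 control arrays, and for Myl4 all 4 hyperthyroid arrays lay below all 4 control arrays. Groups that do not overlap were found for 6.55% of all genes and for these 2 of the 15. The lower ones were Myl4, an embryonic light chain (-0.44 ± 0.16, limma adjusted p = 0.434), Myh8, the perinatal myosin heavy chain (-1.67 ± 0.70, limma adjusted p = 0.478), and Sln, which inhibits the calcium pump (-1.58 ± 0.70, limma adjusted p = 0.497). Sln read 267 and 236 on control replicates 7 and 11. On control replicates 8 and 9 it read 33.2 and 79.0, within the hyperthyroid range of 6.75 to 93.0. Myog, named for its role after its value was seen, is a factor that raises Chrna1 and Chrng in denervated rodent muscle, and it read 238, 121, 98.0 and 178 on hyperthyroid replicates 1, 2, 3 and 5, against 228, 171, 200 and 349 on control replicates 7, 8, 9 and 11. It was highest on control replicate 11, as Chrna1, Chrne, Chrng and the Rapsn probe set under the filter were, whereas Chrnd and Musk were highest on control replicate 7 and Chrnb1 (1369091_at) was lowest on control replicate 11. Control replicate 11 also had the highest median over all probe sets, 54.9, and the outlying score of 94.7 on the first principal axis. Other myogenic factors of the list did not share that array. Myf6 and Myod1, the latter named after its value was seen, were highest on hyperthyroid replicate 1, at 4649 and 1110. Myod1 read 436 on control replicate 11. A link between Myog and the receptor genes was not tested. The log2 fold change of Myog was -0.60 ± 0.29 (limma adjusted p = 0.535).

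**Figure D4:**
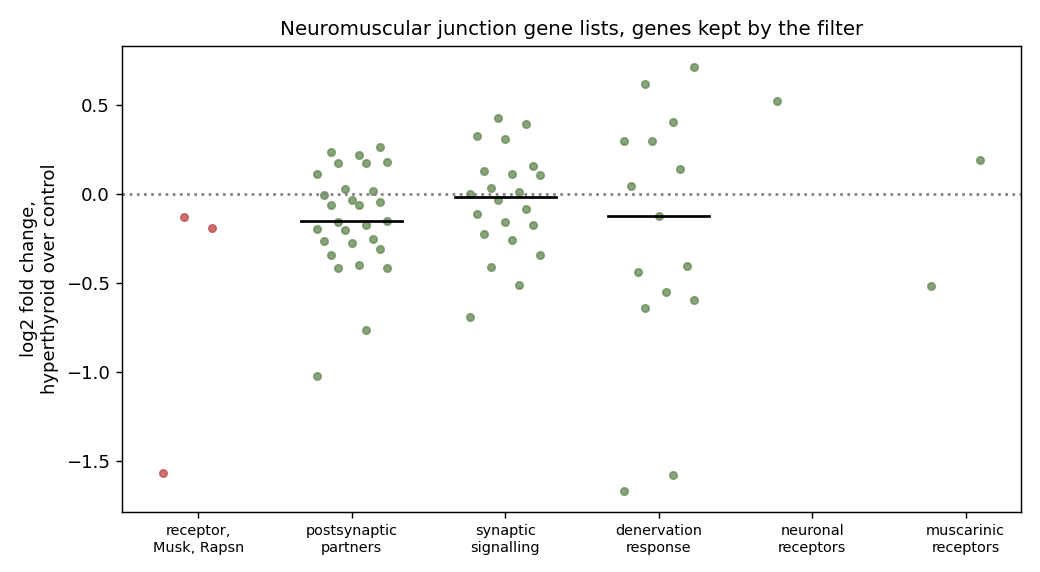
Log2 fold change of hyperthyroid over control muscle for each gene kept by the filter (points, 1 probe set per gene), for the receptor, Musk and Rapsn genes (red) and the other lists (green), with the list median as a black line where a list has more than 3 genes and the median of all 10200 genes as a dotted line. The medians of postsynaptic partners, signalling and denervation genes lie at -0.15, -0.02 and -0.13, and no point passed the adjusted threshold.

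Most acetylcholine receptors of other cell types lay under the filter. Of 11 neuronal nicotinic subunits 1 passed the filter, Chrnb2 (0.52 ± 0.80, limma adjusted p = 0.869), and of 5 muscarinic receptors 2 did, Chrm3 (-0.52 ± 0.54, limma adjusted p = 0.791) and Chrm2 (0.19 ± 0.93, limma adjusted p = 0.968). None passed the test.

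For each gene above the filter, the pair of genes whose log2 values followed it most closely over the 8 arrays was taken from the other 10199. For Chrna1 these were Tfpi2, a protease inhibitor (Pearson r = 0.98), and Ppm1d, a protein phosphatase (r = 0.97). For Chrnb1 they were Nfe2l2, a transcription factor of the antioxidant response (r = 0.95), and Tnk2, a tyrosine kinase (r = 0.93). For Rapsn they were Celsr3, a cadherin receptor (r = 0.95), and Atp6v0a2, a subunit of the vacuolar proton pump (r = 0.95). These are descriptions of 8 arrays that share their scaling, picked as the highest of many. The 3 genes above the filter had no such gene in common, but with only 2 taken for each this was no test of a shared pattern.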

How the data were processed

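Total RNA of whole tibialis anterior was copied from oligo(dT)-primed cDNA into biotin-labelled cRNA, per the labels' protocols, and hybridised to 1 Affymetrix array per rat, so the probes report mainly the 3' part of a transcript. The values deposited by the authors are linear intensities, made with GCOS per the submitters' processing notes. For its version: not given in the sources used here. Equal trimmed means of 150 show that each array had been scaled to 1 target. Detection calls were not used here.

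Of 31099 probe sets, 57 were controls, 20826 had 1 gene symbol, 436 several and 9780 none. Entrez identifiers matched 20758 to RefSeq genes (GRCr8), and 0 symbols changed. The genes and lists were chosen with earlier results of these data known. Intensities were analysed as log2(intensity + 3.41), the 10th percentile of all values. Probe sets above the 40th percentile of mean log2 value (4.69) were tested with limma 3.58.1 in R 4.3.3 (lmFit, eBayes with trend, two-sided, Benjamini-Hochberg over 18625 at 0.05). The script was tested on simulated data. The groups shared no replicate number, and no batch was labelled. Named genes were the members, up to 4 genes of smallest p per list, 2 of closest pattern per kept member, and Myh7 and Ckm. One further gene of the rule is not reported here. Others are said to be named after their values were seen. Alternatives changed normalization, pseudocount, filter, variance prior, array weights, threshold, probe set choice and arrays.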

Additional observations from a re-analysis of the deposited data

Results flagged for a closer look

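Within groups, the most extreme array was set against the others for each of the 9 probe sets, in 18 groups of 4 arrays, and 3 stood apart by a gap, as a share of the group's range on the log2 scale, above Dixon's critical value. Chance alone flags about 1 in 20 groups. Chrnb1 (1369091_at) was high on hyperthyroid replicate 1, with an intensity of 372 and a gap of 0.879 of the range. Chrnd was low on control replicate 8, with an intensity of 2.31 and a gap of 0.889. Chrng was high on control replicate 11, with an intensity of 98.9 and a gap of 0.849. Without the array in question the log2 fold change was -0.35 for Chrnb1, -2.57 for Chrnd and -0.08 for Chrng, and none passed the test.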

How the results depend on the processing

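No probe set of the receptor, Musk or Rapsn genes passed the threshold under any of the 21 alternatives that gave a count, and the smallest limma adjusted p among 164 values was 0.343, for Chrnd without control replicate 8. Direction was kept by 144 of these values and turned by 20. Settings that changed only the filter or the variance prior leave the log2 fold change as it is. Their values, counted among the 144, could not have turned. Chrna1 turned to 0.044 without control replicates 7 and 11 together. Median centring moved the median of all genes by 0.22 and turned Chrnb1 to 0.089 (1369091_at) and 0.18 (1379870_at) and Rapsn to 0.028 (1383397_at) and 0.085 (1395946_at), all below that shift. It moved the medians of postsynaptic partners and signalling genes to 0.068 and 0.20, also below it. Quantile normalization turned the dimmer probe sets of Chrnb1 and Rapsn to 0.087 and 0.039. Without control replicates 9 and 11 together, those of Chrnb1 and Rapsn were 0.54 and 0.068, Chrng was 0.043, and the median of denervation genes was 0.26. Without control replicates 7 and 11 the dimmer Rapsn probe set was 1.15. With 1 array left out, values ran from -2.13 to -0.87 for Chrna1, -0.35 to -0.04 for Chrnb1 (1369091_at), -0.60 to 0.59 for Chrnb1 (1379870_at), -2.57 to -1.32 for Chrnd, -0.22 to 0.97 for Chrne, -1.22 to -0.08 for Chrng, 0.24 to 1.48 for Musk, -0.26 to -0.14 for Rapsn (1383397_at) and -0.61 to 0.38 for Rapsn (1395946_at). The difference between Chrng and Chrne ran from -1.82 to -0.67 with 1 array left out. It was -2.11 without control replicates 7 and 11 together and -0.39 without control replicates 9 and 11 together. No gene of the other junction lists passed the threshold in any of 95 list settings, the main one and at most 19 alternatives for each list. In some alternatives no neuronal or no muscarinic receptor gene passed the filter, so none was tested there.

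Over all probe sets, 6 passed. The count was 19 with median centring, 16 with no filter, 22 with a robust variance, 10 with array weights and 11 at an adjusted p under 0.1. It was 0 without a variance trend, 1 without control replicates 7 and 11, 0 without control replicates 9 and 11, and 0 to 5 with 1 array left out, the 0 being without hyperthyroid replicate 3 and without control replicate 7. In these 4 settings with a count of 0, limma gave 1441 to 1598 probe sets an unadjusted p under 0.05. No paired analysis was possible because the groups share no replicate number. The causes of these changes were not tested. Of the 9 probe sets, 6 lie under the filter, and background was not measured here.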
